A study of Mus musculus with 11 samples.

Results

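The genes described here encode enzymes, transporters and regulators of fatty acid oxidation, together with enzymes and assembly factors of the peroxisome. Of 37 named genes, 34 had a probe set that carried their symbol alone in the platform annotation, out of 19938 genes measured in this way. Cpt1b, Acsl1 and Acsl3 had no such probe set and were not analysed here. Where a gene had several probe sets, the one with the highest mean over all 11 arrays was used. The rule for the genes uses their function and no measured value, but earlier results of these data were known when it was written. Wild-type C57Bl6J mice received 9 hourly intraperitoneal injections, either of caerulein to induce acute pancreatitis or of sodium chloride (NaCl). Caerulein mimics the gut hormone cholecystokinin and drives acinar cells, the digestive enzyme producers of the pancreas, beyond normal secretion. RNA of the whole pancreas was hybridised to 1 Affymetrix array per sample, giving 5 NaCl and 6 caerulein arrays. The series text counts 4 controls, but 5 control samples carry titles, and all were used. The dose is stated as 50 mg/kg, but its unit may be a slip for micrograms, so the dose given to the mice is uncertain. Neither the age of the mice nor the time from the last injection to tissue collection is given in these sources. The labels do not state outright that samples came from different mice. The spread behind each p-value is that of these samples and may be technical.

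Fatty acids are first activated to acyl-CoA by synthetases. Long chains then enter mitochondria by the carnitine shuttle (CPT1, the carrier SLC25A20 and CPT2). Each turn of mitochondrial beta-oxidation runs through an acyl-CoA dehydrogenase, a hydratase, a hydroxyacyl-CoA dehydrogenase and a thiolase. The dehydrogenases hand their electrons to the electron transfer flavoprotein and from there to the respiratory chain. Peroxisomes shorten very long and branched chains with their own set of enzymes, make hydrogen peroxide in the first step and hold catalase, which breaks it down. Peroxins (PEX proteins) build the peroxisomal membrane and import its enzymes. PPAR alpha and its coactivator PGC-1 alpha are known as inducers of many of these genes. In the pancreas, acinar cells are rich in mitochondria and burn fuel to support enzyme synthesis and secretion.

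In caerulein pancreas, 17 of the 34 genes were lower and 6 higher, and 11 did not pass the test (limma, Benjamini-Hochberg adjusted p under 0.05 over all 35556 probe sets). Among all named genes 54.6% were called, 34.3% lower and 20.3% higher, whereas the shares among the 34 were 67.6%, 50% and 17.6%. Over all probe sets, with or without a gene name, 44.2% were called, 27.8% lower and 16.4% higher. The falls lay in the electron transfer flavoprotein, in Eci1, Eci2 and Decr1, which handle unsaturated chains, and in Hadh and Hadhb. They also lay in 5 of the 7 peroxisomal enzymes, in Pex3 and Pex11a, and in both regulators, with Ehhadh and Hadh falling most. The rises lay in the acyl-CoA synthetases Acsl4 and Acsl5, in the long-chain dehydrogenase Acadl, in the peroxisomal Crot and Hsd17b4, and in Pex14. The carnitine shuttle genes did not pass the test. By part, 8 of the 17 measured mitochondrial genes, carnitine shuttle included, were lower and 1 higher (47.1% and 5.88%). With 52.9% called they were near the 54.6% of all named genes. The peroxisomal enzymes gave 71.4% lower and 28.6% higher, and the PEX genes 33.3% and 16.7%, the latter near all named genes. The median difference of the 34 genes was -0.26 on the log2 scale, against -0.13 for all genes, and 20 of the 34 lay below the median of all genes. Each difference is caerulein minus NaCl in log2 units, followed by its standard error (SE) from limma. In this bulk tissue, fewer cells of a type and less RNA per cell cannot be told apart.

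**Figure D1:**
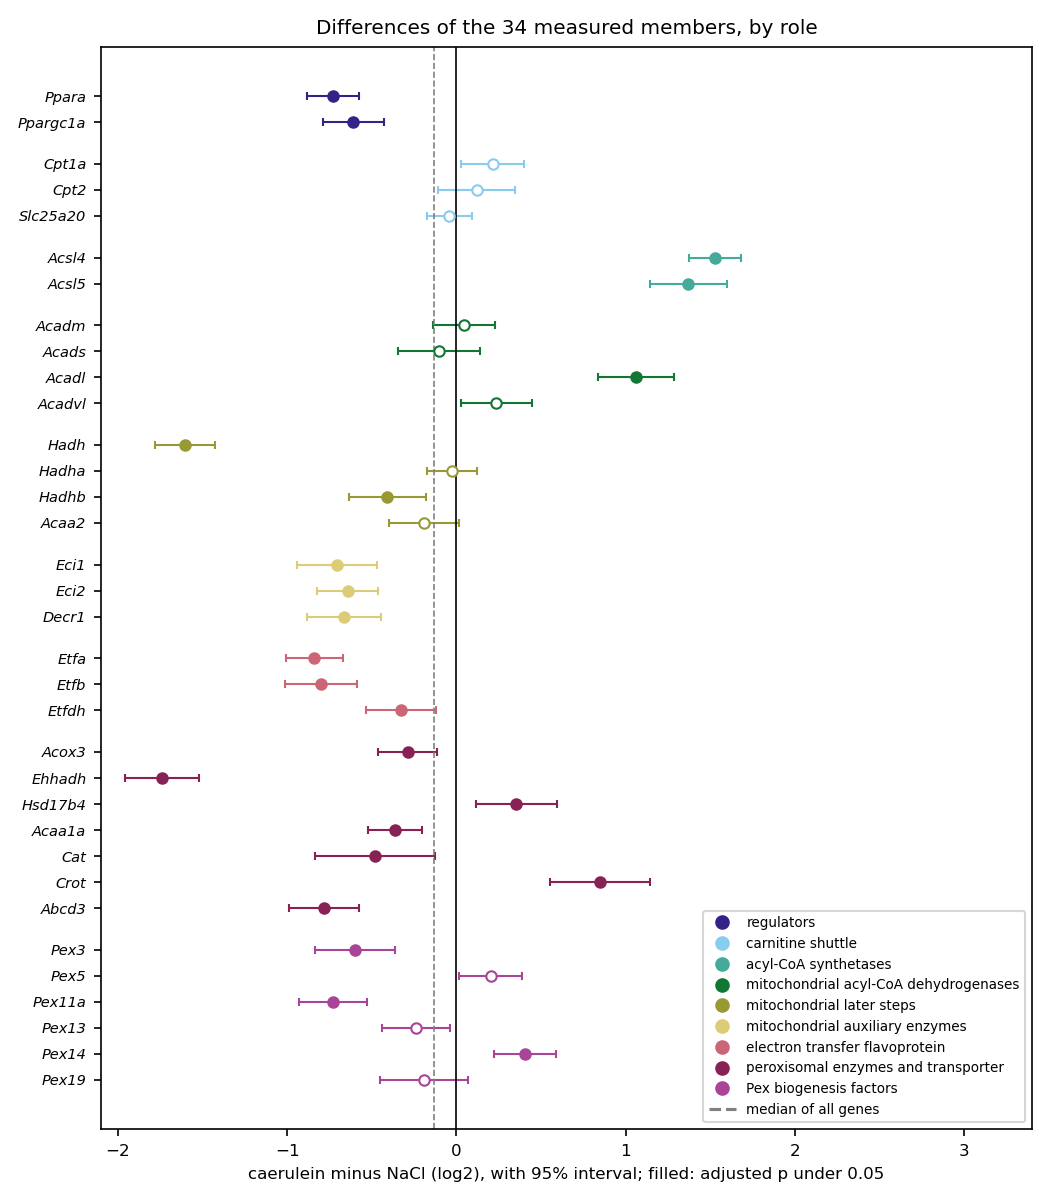
Caerulein minus NaCl differences (log2, horizontal axis) of the 34 genes with 95% intervals from the limma fit, grouped and coloured by role; filled points passed adjusted p under 0.05, and the dashed line is the median of all genes (-0.13). Ehhadh (-1.74) and Hadh (-1.60) lie farthest to the left, Acsl4 (1.53) and Acsl5 (1.37) farthest to the right, and the 3 carnitine shuttle genes near 0.

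The arrays separated by treatment, with correlations of 0.981 to 0.991 within groups and 0.938 to 0.955 between them. Of the probe sets called in the deposited values, 62.9% were lower; this share was 46.4% after cyclic loess normalisation and 94.6% when each array was shifted to an equal mean of 13 commonly used reference genes. The last shift lowered every difference by 0.72, because the reference genes were on average higher in caerulein. Under it, 30 of the 34 genes were lower and 3 higher, while 85.8% of all named genes were lower. Cyclic loess moved the median of all genes from -0.13 to -0.02. After a second quantile normalisation 20 were lower and 4 higher, after cyclic loess 17 and 5, and with equal 75th percentiles 19 and 6. Of the 23 calls, 20 kept their direction and stayed past the threshold under all 4 rescalings, the exceptions being the rises of Hsd17b4, Crot and Pex14. Like the reference gene shift, the 75th percentile scaling lowered every difference, by 0.06. Under these shifts a fall could not turn sign, so only rises could change direction there.

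**Figure D2:**
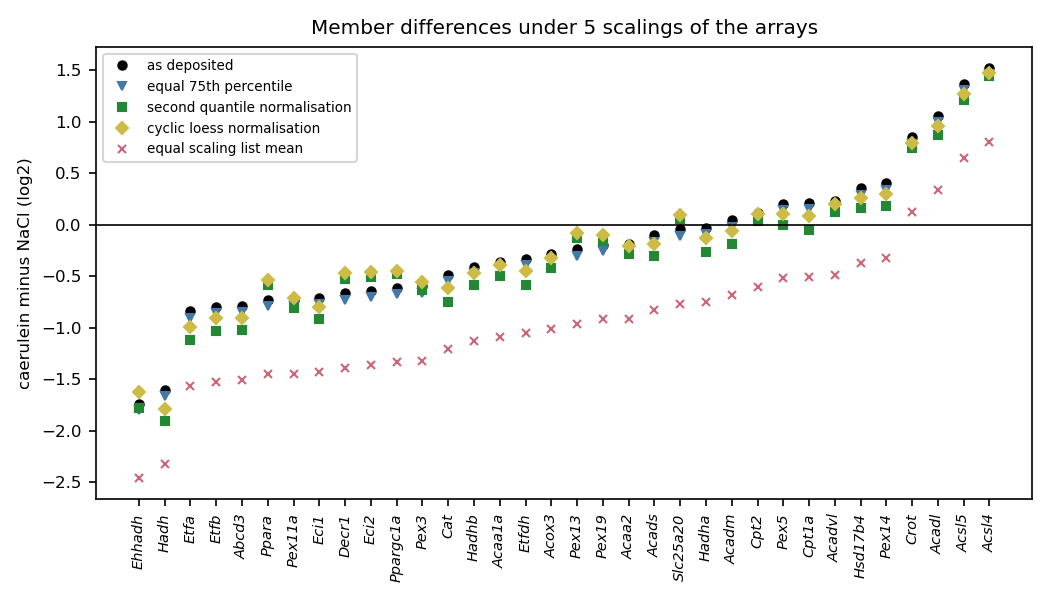
Caerulein minus NaCl differences (log2, vertical axis) of the 34 genes, ordered by their value as deposited, under 5 scalings of the arrays given by different symbols. The crosses (equal mean of the reference genes) lie 0.72 below the circles throughout, and under that scaling Hsd17b4 (-0.37) and Pex14 (-0.32) lie below 0.

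Both regulators fell. Ppara, the nuclear receptor that binds fatty acids (probe set 10425987), had log2 values of 5.72, 5.79, 5.64, 5.62 and 5.75 in NaCl. In caerulein its values ran from 4.82 to 5.16 with a median of 4.95. Every caerulein array thus lay below every NaCl array, a pattern seen downward in 20.6% of all named genes. The difference was -0.73 (SE 0.07, limma adjusted p = 3.66e-06), or 1.66-fold. Ppargc1a, which encodes the coactivator PGC-1 alpha (probe set 10529979), read 4.91, 4.62, 4.67, 4.85 and 4.96 in NaCl. Its caerulein values ran from 4.07 to 4.41 with a median of 4.17. The groups did not overlap here either, and the difference was -0.61 (SE 0.08, limma adjusted p = 6.82e-05). A second, dimmer Ppargc1a probe set gave -0.52 (limma adjusted p = 0.00101). Ppara and Ppargc1a lie low on these arrays, without detection calls, and lay in the lower 50 percent of probe sets by mean level.

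The synthetases rose most among the 34 genes. Acsl4 encodes the acyl-CoA synthetase that prefers arachidonic acid and other polyunsaturated chains (probe set 10607089). Its log2 values were 6.06, 6.08, 5.89, 6.17 and 6.09 in NaCl. In caerulein they ran from 7.49 to 7.76 with a median of 7.56, well clear of the NaCl arrays. This was a 2.88-fold rise (difference 1.53, SE 0.07, limma adjusted p = 3.84e-09), and rises of at least 1 on the log2 scale were called for 6.14% of all named genes. Acsl5, a long-chain synthetase of mitochondria and the endoplasmic reticulum (probe set 10464045), read 6.28, 6.55, 6.36, 6.78 and 6.48 in NaCl. Its caerulein values ran from 7.57 to 8.09 with a median of 7.89. All 6 caerulein arrays lay above the NaCl arrays, a 2.59-fold rise (difference 1.37, SE 0.11, limma adjusted p = 4.22e-07). Both stayed higher under all 4 rescalings, with lowest values of 0.81 for Acsl4 and 0.65 for Acsl5.

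The carnitine shuttle did not pass the test in any of its 3 measured genes. Cpt1a, the liver-type carnitine palmitoyltransferase of the outer membrane and the gate for long-chain entry, read 7.24 to 7.59 in NaCl and 7.42 to 7.72 in caerulein. The ranges overlapped, and the difference was 0.21 with a 95% interval from 0.03 to 0.40 (limma adjusted p = 0.0604). It passed upward without NaCl replicate 1 (0.27, limma adjusted p = 0.0212), without NaCl replicate 4 (0.25, adjusted p = 0.0479) and without caerulein replicate 3 (0.25, adjusted p = 0.0410). Cpt2, which rebuilds acyl-CoA inside the matrix, differed by 0.12 (95% interval -0.11 to 0.35, adjusted p = 0.382). Slc25a20, the carnitine-acylcarnitine carrier between them, differed by -0.04 (95% interval -0.18 to 0.09, adjusted p = 0.596). The reference gene scaling made all 3 lower (Cpt1a -0.51, Cpt2 -0.60, Slc25a20 -0.77).

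Of the 4 mitochondrial acyl-CoA dehydrogenases, which open each turn of the cycle on chains of different length, Acadl rose and the others did not pass. Acadl, the long-chain dehydrogenase (probe set 10355246), had log2 values of 6.31, 6.88, 6.68, 6.48 and 6.87 in NaCl. In caerulein they ran from 7.54 to 7.78 with a median of 7.72. The NaCl arrays were spread more widely (SD 0.25, n = 5) than the caerulein arrays (SD 0.09, n = 6), and the groups did not overlap. The rise was 2.08-fold (difference 1.06, SE 0.10, limma adjusted p = 3.53e-06). Acadm, the medium-chain enzyme, differed by 0.04 (95% interval -0.14 to 0.23). Acads, the short-chain enzyme, differed by -0.10 (95% interval -0.35 to 0.14) and passed downward under the reference gene scaling (-0.83) and when quantile normalised again (-0.30, limma adjusted p = 0.0424). Acads read 6.64 to 6.96 in caerulein replicates 1 to 3 and 7.16 to 7.27 in replicates 4 to 6. Acadvl, the very long-chain enzyme of the inner membrane, differed by 0.24 (95% interval 0.03 to 0.44, limma adjusted p = 0.0621). Acadvl passed upward without NaCl replicate 5 (0.30, adjusted p = 0.0209) and without caerulein replicate 3 (0.28, adjusted p = 0.0331).

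Hadh, which encodes the short-chain hydroxyacyl-CoA dehydrogenase of the mitochondrial matrix (probe set 10502205), fell 3.04-fold. Its log2 values were 9.44, 9.25, 9.24, 9.50 and 9.34 in NaCl, and ran from 7.58 to 7.94 with a median of 7.74 in caerulein. No array came near the other group, and the lowest NaCl array lay 1.29 above the highest caerulein array. The difference was -1.60 (SE 0.08, limma adjusted p = 9.65e-09), and falls of at least 1 on the log2 scale were called for 1.44% of all named genes. Hadh is also known for high expression in islet beta cells. The islet markers Ins2, Gcg, Sst, Iapp and Chga did not pass here, with differences between -0.42 and 0.27, and Ppy was lower by 0.31 (limma adjusted p = 0.0405). The summed level of the 6 islet markers ran from 10.87 to 12.54 (log2) in NaCl and from 11.30 to 12.49 in caerulein, a wide spread within each group. The part of islet cells in the fall of Hadh was not tested. Acaa2, the mitochondrial thiolase that closes the turn, read 6.55 to 6.99 in NaCl and 6.28 to 6.68 in caerulein. Its difference was -0.19 (95% interval -0.40 to 0.02, limma adjusted p = 0.123); it passed with equal 75th percentiles (-0.25, adjusted p = 0.0385) and when quantile normalised again (-0.29, adjusted p = 0.0355).

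Hadha and Hadhb encode the alpha and beta subunits of the mitochondrial trifunctional protein, which carries out the last 3 steps on long chains. Their RefSeq start sites lie head to head on chromosome 5 (GRCm38.p6), Hadha on the minus strand at 30154980 and Hadhb on the plus strand at 30155253, with 272 bases between them. The part of this interval that falls in the 250 bases before both starts is shown because both genes are read outward from it; it covers chr5:30155003-30155230, plus strand, and holds none of the motifs described below, so no base is in capitals.
Hadha and Hadhb shared interval: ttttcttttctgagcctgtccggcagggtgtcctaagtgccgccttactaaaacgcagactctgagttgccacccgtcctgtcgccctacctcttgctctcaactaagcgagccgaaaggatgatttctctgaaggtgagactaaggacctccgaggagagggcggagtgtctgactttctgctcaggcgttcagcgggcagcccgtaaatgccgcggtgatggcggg
Hadha read 7.26, 7.28, 7.16, 7.37 and 7.23 in NaCl and from 7.06 to 7.33 in caerulein. The difference was -0.03 (95% interval -0.17 to 0.12, limma adjusted p = 0.766). Hadhb read 7.28, 6.98, 7.20, 7.43 and 6.94 in NaCl and from 6.58 to 7.05 in caerulein, where 5 of 6 arrays lay below all NaCl arrays. It fell by 0.41 on the log2 scale (probe set 10474379, SE 0.10, limma adjusted p = 0.00707), and a second Hadhb probe set (10520467) gave -0.38 (adjusted p = 0.00802). The genome positions of these probe sets are not given here. After a second quantile normalisation Hadha was lower as well (-0.26, adjusted p = 0.00459).

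The auxiliary enzymes and the electron carriers fell together. Eci1 and Eci2, isomerases that move double bonds of unsaturated chains, and Decr1, the mitochondrial dienoyl-CoA reductase for polyunsaturated chains, were lower by 0.64 to 0.71. Eci1 ran from 7.38 to 7.76 in NaCl and from 6.67 to 7.15 in caerulein (difference -0.71, SE 0.11, limma adjusted p = 0.000196). Eci2 ran from 5.70 to 5.90 and from 5.00 to 5.42 (difference -0.64, SE 0.08, adjusted p = 4.39e-05). Decr1 ran from 5.57 to 5.71 and from 4.62 to 5.25 (difference -0.66, SE 0.10, adjusted p = 0.000176). In all 3 genes every caerulein array lay below the NaCl arrays.

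Etfa and Etfb encode the subunits of the electron transfer flavoprotein and Etfdh the membrane oxidoreductase that passes its electrons to ubiquinone. Etfa read 8.19, 8.19, 8.11, 8.45 and 8.30 in NaCl and from 7.23 to 7.52 in caerulein, with a median of 7.45. Etfb read 7.67, 7.75, 7.79, 7.81 and 7.60 in NaCl and from 6.56 to 7.13 in caerulein, with a median of 6.93. Both were clear of the NaCl arrays, with differences of -0.84 for Etfa (SE 0.08, limma adjusted p = 2.40e-06) and -0.80 for Etfb (SE 0.10, adjusted p = 2.72e-05), or 1.79-fold and 1.74-fold. Etfdh read 7.41 to 7.85 in NaCl and 7.04 to 7.40 in caerulein, so that its groups only just failed to overlap (difference -0.33, SE 0.10, adjusted p = 0.0148).

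Promoter sequences of these 3 genes are shown because the members fell together, and that of Ehhadh because it fell most. Each is the 250 bases before the RefSeq start, read towards the gene, from GRCm38.p6. The intervals are chr9:55512244-55512493 (minus strand) for Etfa, chr7:43443822-43444071 (plus strand) for Etfb, chr3:79628768-79629017 (minus strand) for Etfdh and chr16:21787835-21788084 (minus strand) for Ehhadh. Capitals mark a CCAAT box (CCAAT, or ATTGG on the other strand) or a core site of the transcription factor NRF-1 (GCGCA and GCGC with any 1 base between them, on either strand).
Etfa: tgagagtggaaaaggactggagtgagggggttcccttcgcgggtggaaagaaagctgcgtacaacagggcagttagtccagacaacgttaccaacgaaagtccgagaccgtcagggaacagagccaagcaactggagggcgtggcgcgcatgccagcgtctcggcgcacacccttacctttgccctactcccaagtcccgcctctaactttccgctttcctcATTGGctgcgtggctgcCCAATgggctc
Etfb: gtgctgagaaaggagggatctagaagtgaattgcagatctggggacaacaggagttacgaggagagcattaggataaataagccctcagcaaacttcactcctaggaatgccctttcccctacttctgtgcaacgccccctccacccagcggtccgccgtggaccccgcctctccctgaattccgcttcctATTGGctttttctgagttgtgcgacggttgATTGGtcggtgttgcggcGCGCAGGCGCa
Etfdh: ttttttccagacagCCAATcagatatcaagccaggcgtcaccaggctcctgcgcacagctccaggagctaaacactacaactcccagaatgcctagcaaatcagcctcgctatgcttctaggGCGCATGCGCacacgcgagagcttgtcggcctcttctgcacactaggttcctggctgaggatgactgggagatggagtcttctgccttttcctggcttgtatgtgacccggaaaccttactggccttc
Ehhadh: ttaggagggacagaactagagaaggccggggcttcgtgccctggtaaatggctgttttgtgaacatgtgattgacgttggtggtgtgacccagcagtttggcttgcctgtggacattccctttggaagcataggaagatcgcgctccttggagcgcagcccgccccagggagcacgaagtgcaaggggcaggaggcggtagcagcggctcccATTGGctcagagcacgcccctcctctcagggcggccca
Etfb and Etfdh each hold an NRF-1 match, and all 4 windows hold a CCAAT box. Over windows of 300 bases (250 before and 50 after the start), which matched 30 of the 34 genes, the NRF-1 core was found in 4 genes, namely Etfdh, Etfb, Abcd3 and Ppara. It was found in 4.60% of all 32851 windows. A CCAAT box was found in 12 of the 30 genes and in 37.4% of all windows. The nuclear receptor hexamer AGGTCA was found on either strand in 4 genes (Cat, Acadm, Acadvl and Cpt1a) and in 16.3% of all windows. Its direct repeat with 1 base between the copies, the consensus for PPAR and its partner RXR, was in none of the 30 genes' windows and in 0.0396% of all windows. A match describes these letters only. The transcript of Nrf1, which encodes NRF-1, was itself 2.16-fold higher (difference 1.11, SE 0.08, limma adjusted p = 2.54e-07).

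**Figure D3:**
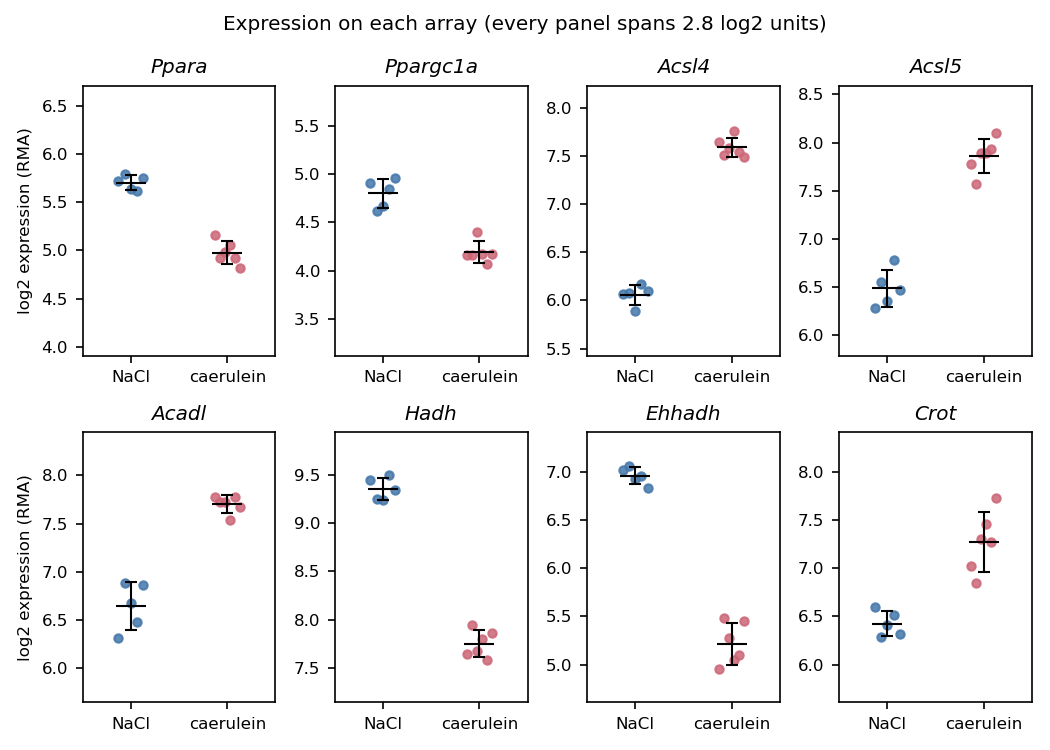
Log2 expression (vertical axis) on each of the 5 NaCl and 6 caerulein arrays for 8 genes; bars are the mean and SD, and each panel spans the same number of log2 units around its own level. Acsl4, Acsl5, Acadl, Hadh and Ehhadh were shown by a rule that required no overlap between the groups, so their separation follows from the choice. The groups do not overlap in Ppara, Ppargc1a and Crot either, for which the rule did not ask it. Ehhadh leaves the widest gap of the 8 genes (1.36).

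All 7 peroxisomal genes passed the test, 5 lower and 2 higher. Ehhadh, the L-bifunctional enzyme that joins the hydratase and dehydrogenase steps in the peroxisome (probe set 10438575), had log2 values of 7.01, 7.06, 6.92, 6.96 and 6.84 in NaCl. In caerulein they ran from 4.95 to 5.48 with a median of 5.19. This was the largest fall of the 34 genes, 3.34-fold (difference -1.74, SE 0.10, limma adjusted p = 2.91e-08). Abcd3, the membrane transporter that brings acyl-CoA into the peroxisome, ran from 7.57 to 7.92 in NaCl and from 6.83 to 7.28 in caerulein. Its fall was 1.72-fold (difference -0.78, SE 0.09, adjusted p = 2.52e-05). Acaa1a, the peroxisomal thiolase, ran from 6.91 to 7.01 in NaCl, the tightest group of any member (SD 0.04, n = 5), and from 6.41 to 6.79 in caerulein (difference -0.36, SE 0.07, adjusted p = 0.00176). Acox3, an oxidase for branched chains, was lower by 0.29 (SE 0.08, adjusted p = 0.0113), with 5 of 6 caerulein arrays below all NaCl arrays.

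Cat, which encodes catalase, was lower by 0.48 (SE 0.16, limma adjusted p = 0.0295), but the caerulein arrays were spread more widely than for any other member (SD 0.38, n = 6). Its NaCl values were 7.82, 7.70, 7.66, 8.09 and 7.70. Caerulein replicates 1, 2 and 3 read 6.99, 7.06 and 6.95, and replicates 4, 5 and 6 read 7.60, 7.40 and 7.87, the last of these above most NaCl arrays. The difference stayed between -0.48 and -0.41 where the call was lost, namely without NaCl replicate 1 (adjusted p = 0.0533), without NaCl replicate 4 (adjusted p = 0.0726), and without caerulein replicate 1, 2 or 3 (adjusted p = 0.0599, 0.0602 and 0.0594). Caerulein replicates 1 to 3 also tended to lie below replicates 4 to 6 over the members as a set, as given below.

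The 2 peroxisomal rises were Crot and Hsd17b4. Crot, the carnitine octanoyltransferase that hands shortened chains from peroxisomes to the carnitine route (probe set 10528102), read 6.59, 6.29, 6.41, 6.51 and 6.31 in NaCl. Its caerulein values ran from 6.85 to 7.73 with a median of 7.29, without overlap. The rise was 1.80-fold (difference 0.85, SE 0.14, limma adjusted p = 0.000277), and it was not past the threshold under the reference gene scaling (0.13, adjusted p = 0.279). Hsd17b4, the D-bifunctional enzyme that works on branched and very long chains, was higher by 0.35 (SE 0.11, adjusted p = 0.0201), with 4 of 6 caerulein arrays above all NaCl arrays. That call was lost after a second quantile normalisation (0.16, adjusted p = 0.25), after cyclic loess (0.27, adjusted p = 0.0664) and without NaCl replicate 5 (0.31, adjusted p = 0.0515), and the sign turned under the reference gene scaling (-0.37).

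Of the 6 peroxins, 2 fell, 1 rose and 3 did not pass. These shares, 33.3% lower and 16.7% higher, were near the 34.3% and 20.3% of all named genes. Pex11a, which promotes elongation and division of peroxisomes, read 7.05, 6.83, 6.67, 6.77 and 7.19 in NaCl and from 6.07 to 6.26 in caerulein. It fell 1.66-fold (difference -0.73, SE 0.09, limma adjusted p = 3.88e-05). Pex3, which together with PEX19 inserts proteins into the peroxisomal membrane, ran from 6.46 to 6.92 in NaCl and from 5.89 to 6.42 in caerulein. The difference was -0.60 (SE 0.11, adjusted p = 0.000734), although the gap between the groups was only 0.03. Pex14, the docking factor at the import pore, ran from 6.85 to 7.25 in NaCl and from 7.31 to 7.64 in caerulein (difference 0.40, SE 0.09, adjusted p = 0.00205). When quantile normalised again, Pex14 did not pass (0.18, adjusted p = 0.110), and its sign turned under the reference gene scaling (-0.32).

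Pex13, the docking partner of PEX14, missed the threshold by a narrow margin (difference -0.24, SE 0.09, adjusted p = 0.05003), and it passed without NaCl replicate 3 (-0.30, adjusted p = 0.0225). It also passed without caerulein replicate 5 (-0.28, adjusted p = 0.0311). Pex5, the receptor that carries most matrix enzymes to the pore, differed by 0.20 (95% interval 0.02 to 0.39, adjusted p = 0.0717), and it passed upward without NaCl replicate 4 (0.25, adjusted p = 0.0389). Pex19, the chaperone for membrane proteins, differed by -0.19 (95% interval -0.45 to 0.07) and passed without NaCl replicate 2 (-0.29, adjusted p = 0.0402).

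Differences between 2 genes on the same array do not move when a whole array is shifted. They are given for 8 pairs of related members as a description without a test, since the pairs were chosen after their values were seen. Ehhadh minus Hsd17b4, the 2 peroxisomal bifunctional enzymes, went from 0.02 ± 0.15 (SD, n = 5) in NaCl to -2.07 ± 0.37 (SD, n = 6) in caerulein. Acadl minus Acadm moved up by 1.01, from a NaCl range of -1.01 to -0.29 to a caerulein range of 0.25 to 0.58. Pex14 minus Pex13 moved up by 0.64, and Crot minus Cpt2, 2 carnitine acyltransferases, by 0.73. For these 4 pairs the groups did not overlap.

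In the other pairs the groups overlapped. Hadhb minus Hadha moved from -0.10 ± 0.19 (SD, n = 5) to -0.48 ± 0.15 (SD, n = 6). Etfa minus Etfb had a mean of 0.52 ± 0.16 (SD, n = 5) on the NaCl arrays, against 0.48 ± 0.18 (SD, n = 6) on the caerulein arrays. Eci1 minus Eci2 changed by -0.06, but by -0.41 after a second quantile normalisation. Acsl4 minus Acsl5 changed by 0.16.

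**Figure D4:**
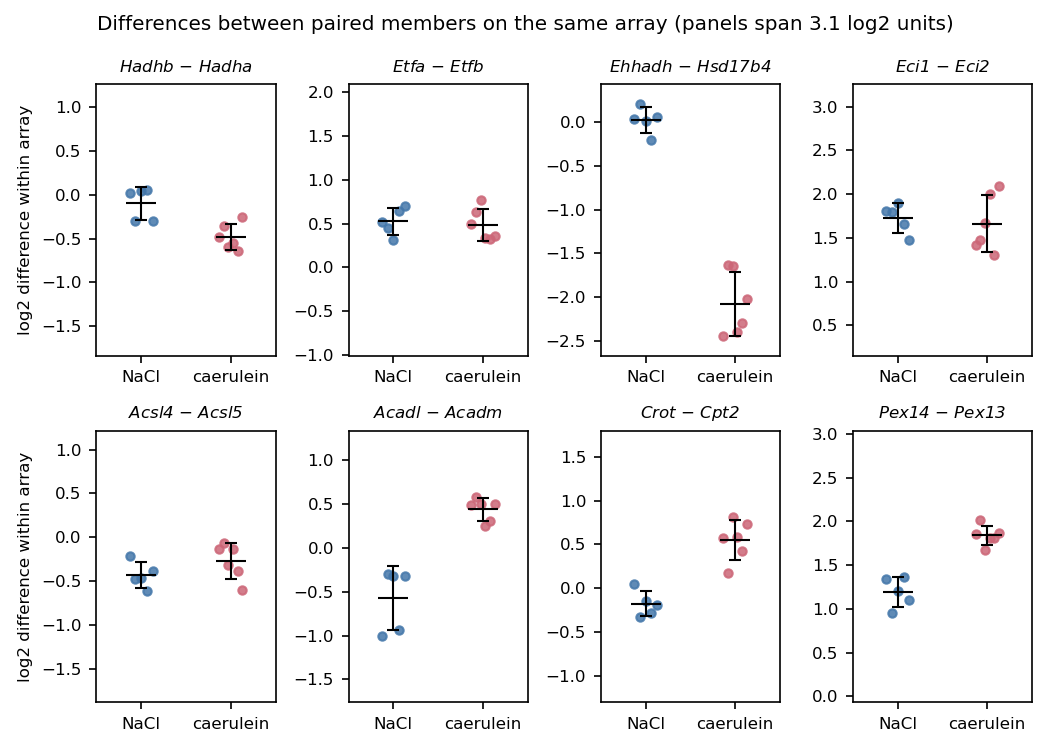
Differences between 2 genes on the same array (log2, vertical axis) for 8 pairs on the 5 NaCl and 6 caerulein arrays, with the mean and SD; every panel spans the same number of log2 units. Ehhadh minus Hsd17b4 is the pair farthest apart between the groups (change of -2.09), while Etfa minus Etfb (change of -0.04) overlaps almost throughout.

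The spread of the members between arrays of a group was small beside the larger changes, with a median SD of 0.14 (log2) in NaCl and 0.15 in caerulein. Of the 34 genes, 5 had every caerulein array above the NaCl arrays and 14 every one below. Among all named genes, called or not, the shares were 16.7% and 20.6%. These 19 genes were all among the 23 past the threshold, where lack of overlap is more common. The called genes with overlap were Hadhb, Acox3, Hsd17b4 and Cat. NaCl replicate 4 was the highest NaCl array for 15 of the 34 genes, and caerulein replicate 6 the highest caerulein array for 14. The median deviation of the 34 genes from their group mean was -0.05, -0.04 and -0.08 in caerulein replicates 1, 2 and 3. It was 0.04, 0.05 and 0.10 in caerulein replicates 4, 5 and 6. The caerulein SDs include this difference between replicates, and its source was not tested. Leaving out each array in turn kept the number lower between 16 and 18 and the number higher between 6 and 8.

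Markers of the tissue and of other cell types were read beside these results. Acinar enzyme genes such as Cpa1, Cela1 and Ctrb1 had group means between 14.3 and 14.6, near the top of the scale. Of 10 acinar markers the transcription factor genes Rbpjl and Nr5a2 were lower (by 1.43 and 0.83), and the summed level of the list was 17.40 to 17.43 in NaCl and 17.31 to 17.36 in caerulein. Of 8 macrophage markers 6 were higher and 0 lower (4 and 2 under the reference gene scaling), and their summed level went from between 8.69 and 8.89 in NaCl to between 9.59 and 10.72 in caerulein. Acsl4, Acsl5 and Acadl were higher in the same arrays. The part of macrophages or of any other cell type in these rises was not tested. Adipocyte markers, which would carry fat-cell genes from tissue around the pancreas, were lower for 2 of 7 and higher for 0. Their summed level was 8.16 to 8.42 in NaCl and 8.09 to 8.54 in caerulein. Skeletal muscle markers were lower for 2 of 8 genes, and hepatocyte markers for 4 of 7, with Ttr, Cyp2e1, Apoa1 and Alb lower by 0.36 to 0.82. Ttr had a NaCl mean of 8.55, against 4.78 to 5.85 for the other hepatocyte markers. Which cells gave the Ttr signal was not tested. Endothelial markers were higher for 2 and lower for 2 of 8, fibroblast markers higher for 3 and lower for 1 of 8, and duct markers higher for 3 and lower for 2 of 6. Among the duct markers Krt19 was higher by 4.39, Krt7 by 1.94 and Cftr by 0.44. Muc1 and Tff2 were lower by 1.14 and 0.82, and Sox9 did not pass. Neutrophil markers were lower for 1 of 8 genes, T and B lymphocyte markers for 4 of 7, and mesothelial markers for 0 of 6, with none higher in these 3 lists. Several of these counts rest on the scaling. With equal 75th percentiles 8 of 10 acinar, 7 of 8 skeletal muscle and 7 of 7 hepatocyte markers were lower, and a trended robust variance prior also gave 8 of 10 for the acinar list. Under the reference gene scaling every measured acinar, adipocyte, skeletal muscle, hepatocyte, lymphocyte and mesothelial marker was lower, as were 7 of 8 neutrophil and 4 of 6 islet markers. After cyclic loess 1 neutrophil and 1 mesothelial marker were higher and none of either list lower. Under the reference gene scaling the fibroblast count turned to 0 higher and 5 lower, and the endothelial count to 0 and 8. All values are log2 intensities without detection calls, so no marker could be read as absent.

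Other genes of the pathway were described from lists chosen by function. Among all named genes 34.3% were lower and 20.3% higher, and the shares of each list are given in that order. Of 13 other mitochondrial oxidation genes 6 were lower and 3 higher (46.2% and 23.1%, median -0.14). Echs1, the short-chain enoyl-CoA hydratase that precedes HADH in the cycle, fell 2.42-fold (difference -1.28, SE 0.10, limma adjusted p = 5.57e-07), and the thioesterase gene Acot2 rose 2.21-fold. Of 31 other peroxisomal genes 16 were lower and 5 higher (51.6% and 16.1%, median -0.31). The largest changes were a 3.76-fold rise of Far1 (limma adjusted p = 2.39e-07) and a 3.12-fold fall of Mpv17l, a peroxisomal membrane protein gene. Far1 makes the fatty alcohol for ether lipids (plasmalogens). Agps and Gnpat, the other peroxisomal enzymes of ether lipid synthesis, named here after their values were seen, were 3.02-fold and 1.56-fold higher. All 3 had caerulein arrays entirely above the NaCl arrays, a pattern seen in 16.7% of all named genes.

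Of 7 other peroxins 3 were lower and 0 higher (42.9% and 0%, median -0.21). Pex7, the receptor that imports the thiolase ACAA1 and a few other enzymes by a signal at their start, fell 2.09-fold (difference -1.06, SE 0.11, limma adjusted p = 7.82e-06). Pex11g, a relative of Pex11a, fell 1.56-fold. Of 6 ketone body genes 4 were lower and 1 higher (66.7% and 16.7%, median -0.85). Acat1 and Oxct1, which both act in the use of ketone bodies, fell 3.00-fold and 2.78-fold, while the monocarboxylate transporter gene Slc16a1 rose 2.10-fold (limma adjusted p = 0.000157).

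Genes known as targets or partners of PPAR alpha were read against the 20.3% higher and 34.3% lower of all named genes. Of 15 PPAR and PGC-1 partners 9 were higher and 5 lower (median 0.41), a balance that turned to 2 and 10 under the reference gene scaling. Klf15, a transcription factor of fasting metabolism, fell 4.63-fold, and Pprc1, a relative of PGC-1 alpha, rose 3.91-fold (limma adjusted p = 9.83e-09). Of 16 other PPAR alpha targets 3 were higher and 6 lower (median -0.21), or 18.8% and 37.5%, shares near those of all named genes. The counts were 3 and 3 after a second quantile normalisation or cyclic loess. The 6 lower genes were Fgf21 (-0.80), Plin4 (-0.58), Creb3l3 (-0.31), Ucp3 (-0.30), Retsat (-0.29) and Cyp4a10 (-0.28). The 3 higher genes were Plin2, the coat protein of lipid droplets, Pdk4, the kinase that shuts off pyruvate oxidation, and Angptl4. Plin2 rose 10.5-fold (difference 3.39, SE 0.17, limma adjusted p = 6.40e-09) and Pdk4 rose 5.00-fold (difference 2.32, SE 0.24). Pdk4 read 7.72 to 7.77 in caerulein replicates 1 to 3 and 6.73 to 6.81 in replicates 4 to 6. In the same samples Ppara fell 1.66-fold, Pparg was higher by 0.41 (limma adjusted p = 0.00145) and Ppard did not pass. Whether these changes are linked was not tested.

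Genes of fat uptake, storage and synthesis are given with the same background. Of 15 uptake and binding genes 4 were higher and 7 lower (4 and 4 after cyclic loess), with the fatty acid translocase Cd36 3.05-fold and the binding protein Fabp5 2.69-fold higher. The largest fall of that list was in Lpl, 1.56-fold. Cd36 is also a macrophage gene, and the macrophage values above apply to it. Of 14 triglyceride storage and release genes 7 were higher and 3 lower, a balance that turned to 2 and 7 under the reference gene scaling. Lpin2 and Abhd5, the activator of the lipase that opens lipid droplets, rose 2.95-fold and 2.72-fold, while Gpam, which starts glycerolipid synthesis, fell 1.75-fold. Of 21 fatty acid synthesis genes 4 were higher and 8 lower, or 19.0% and 38.1%, again near the shares of all named genes. The elongase gene Elovl7 rose 10.7-fold (limma adjusted p = 1.37e-10) and the malic enzyme gene Me1 6.39-fold. Among the falls, named here after their values were seen, the desaturase gene Scd2 was 5.46-fold lower (difference -2.45, limma adjusted p = 3.79e-06), Tecr 2.33-fold and Fads1 1.99-fold.

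**Figure D5:**
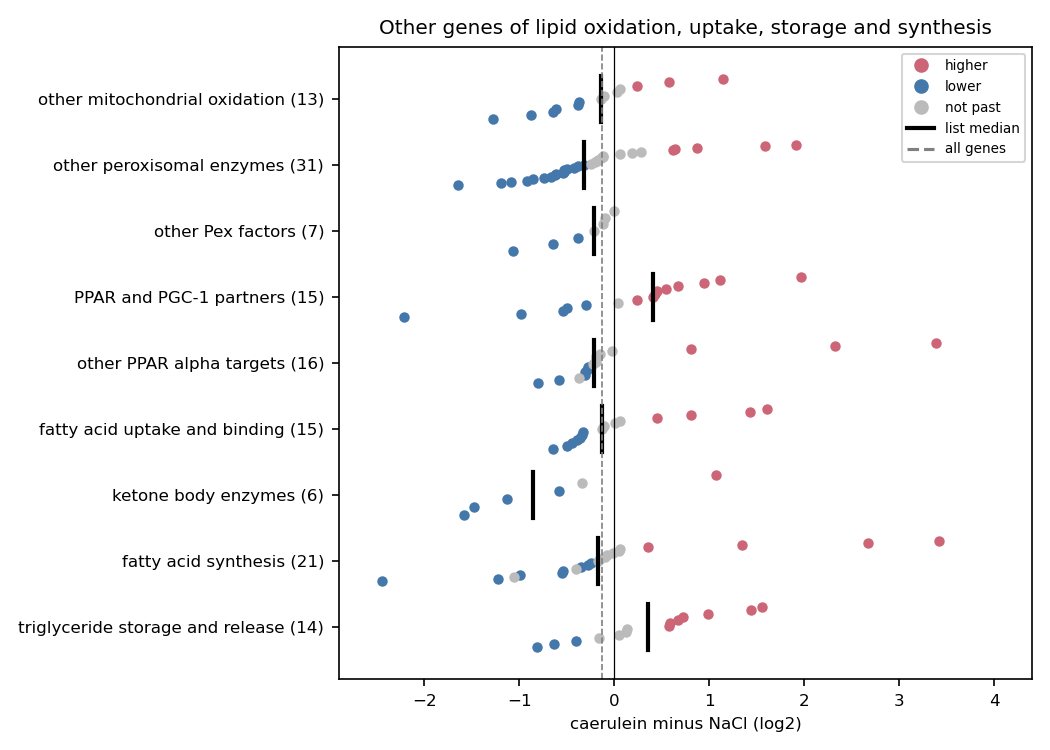
Caerulein minus NaCl differences (log2, horizontal axis) of the other genes in 9 lists, with the number measured in parentheses; red points were higher and blue lower at adjusted p under 0.05, grey did not pass, black bars are list medians and the dashed line is the median of all genes. The ketone body list has the lowest median (-0.85), and Plin2 (3.39) and Elovl7 (3.42) are the points farthest to the right.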

How the data were processed

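Total RNA of whole pancreas was measured on Affymetrix arrays; degraded RNA had been excluded, per the labels' protocols. The authors' table holds 1 deposited log2 value for each probe set and array, with RMA, oligo and limma named in the submitters' processing notes; versions and genome build are not given in these sources. The deposited log2 values ran from 1.95 to 15.0, with no missing entries. Groups came from the sample titles. Of 35556 probe sets 21789 carried 1 symbol, 1621 several and 12146 were not listed. All 34 members matched a RefSeq gene by Entrez identifier and 0 were renamed.

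The groups were compared by limma 3.58.1 (R 4.3.3; functions lmFit and eBayes, two-sided, no covariates, Benjamini-Hochberg over all probe sets, threshold 0.05); the code was tested on simulated data. Per-array values were given for members with a called difference of at least 1 and no overlap, for called members against their role's majority by at least 0.5, and for the regulators, with further members added. Each other list gave its 2 largest called changes and the largest against its majority. The members and lists were chosen with earlier results of these data known. Summed marker levels are sums of linear values, in log2. RMA can shrink changes in very dim and very bright probe sets, no detection calls were used, and the number of arrays limits precision. The alternatives tried included array weights, a trended robust variance prior, 4 rescalings, removal of the dimmer 50 percent, the replicate number as a block, another probe set per gene and leaving out each array. For the pairs, rescalings and left-out arrays were added after seeing the data. Promoter sequences and start sites are from RefSeq, GRCm38.p6; 4 members had no window there.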

Additional observations from a re-analysis of the deposited data

Results flagged for a closer look

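Each of the 34 genes was examined in both groups for an array far from the others of its group (Dixon's test at the 95% level, 68 gene and group combinations, in which chance alone gives about 1 flag in 20), and 3 were found. For Ppargc1a, caerulein replicate 3 read 4.41, against 4.07 to 4.18 on the other caerulein arrays, still below every NaCl array. For Slc25a20, NaCl replicate 3 read 5.99, against 5.83 to 5.88 on the other NaCl arrays. For Acaa2, caerulein replicate 3 read 6.28, against 6.56 to 6.68 on the other caerulein arrays. Without caerulein replicate 3, the difference of Ppargc1a stayed past the threshold, as it did without each other array (adjusted p at most 0.000304).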

How the results depend on the processing

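Of 20 alternative settings, 5 left every member's call as it was (the trended prior, the replicate block, the other probe set, and leaving out caerulein replicate 4 or 6). Only Hadhb and Ppargc1a have a second probe set, so the other probe set could move no other member. The reference gene scaling left 20 of 34 and each other setting at least 28. Of the 23 genes past the threshold, 19 kept direction and call in every setting in which they were measured, and the others were Hsd17b4, Cat, Crot and Pex14, whose values stand in the report. Falls could not turn sign under the reference gene and 75th percentile scalings, which lower every difference. Each of the 11 genes not past it passed in at least 1 setting, the reference gene scaling included. The replicate number as a block left 17 lower and 6 higher and changed no call among the members; over all probe sets 13361 were called with the block and 15713 without. Same-numbered arrays of the groups deviated with correlations of -0.05 to 0.06, and 2 of 5 NaCl arrays matched their own number best, so the numbers were not taken as pairs. Equal scaling of 13 reference genes changed most: 32357 probe sets called, 30 members lower and 3 higher, and a member median of -0.99 against -0.26. Under it the signs turned for Cpt1a (-0.51), Cpt2 (-0.60), Acadm (-0.68), Acadvl (-0.49), Hsd17b4 (-0.37), Pex5 (-0.52) and Pex14 (-0.32); by construction it lowers every difference by 0.72. Values that did not pass also turned sign under other rescalings: Cpt1a (-0.05), Slc25a20 (0.06), Acadm (-0.18) and Pex5 (-0.0061) after a second quantile normalisation, Slc25a20 (0.10) and Acadm (-0.06) after cyclic loess, and Acadm (-0.017) with equal 75th percentiles. Leaving out each array gave 14148 to 14993 probe sets called, 16 to 18 members lower, 6 to 8 higher and medians of -0.30 to -0.23. Over the same left-out arrays the Hadhb minus Hadha change stayed between -0.43 and -0.34. Without the dimmer 50 percent, 15 members were lower and 8 higher of 31 left. Dim genes such as Ppargc1a may lie near background, which these values cannot show.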

Other observations

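Genes often used as loading references were not level between the groups. Of 13 measured reference genes 8 were higher in caerulein and 0 lower. Actb, which encodes cytoplasmic actin, was higher by 2.93 (SE 0.09, limma adjusted p = 1.36e-10), the adaptor gene Ywhaz by 1.88 and the glycolytic enzyme gene Pgk1 by 1.65. Hprt was higher by 0.91 and the cyclophilin gene Ppia by 0.62. Gusb (0.07), Tfrc (0.08), Rplp0 (0.13), Sdha (-0.17) and B2m (0.40) did not pass.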
